A study of Mus musculus with 6 samples.

Results

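Replication-dependent histone genes make the bulk of the core histones H2A, H2B, H3 and H4 and of the linker histone H1. Here they were the genes whose deposited symbol followed the mouse pattern of H1f1 to H1f5, H2ac, H2bc, H3c or H4c numbers and that had 10 or more reads in at least 3 of the 6 libraries. Of 16539 genes listed, 61 had such a symbol and 43 of these passed the read threshold: 5 of class H1, 9 of class H2A, 13 of class H2B, 5 of class H3 and 11 of class H4. The other 18 had between 7 and 70 reads over all 6 libraries. The libraries held polyadenylated RNA of granulocyte-monocyte progenitors, which mature in the bone marrow into neutrophils and monocytes. The mice were wild type (WT) and their cells were sorted on day 3 after a myocardial infarction. The sleep fragmentation group, in which sleep was repeatedly broken, and the control group each had 3 libraries, and the infarction was common to both. Strain, age and whether a library came from 1 mouse or from a pool are not given in the sources used here, and the spread between libraries, on which every p-value rests, may be partly technical. The design text asks what underlies the proliferation of these progenitors and their turn to neutrophils.

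A dividing cell needs new histones for each copy of its genome, and these genes are switched on as DNA replication begins and their mRNA is destroyed when replication ends. Their transcripts carry no poly(A) tail in cycling cells. They end instead just after a short stem-loop, which the protein SLBP binds. The U7 snRNP and the cleavage factor CPSF take part in the cut that makes this end. When cells stop dividing and differentiate, some of these genes are known to yield polyadenylated transcripts from signals beyond the stem-loop. Libraries of polyadenylated RNA are made to leave out the usual tailless form, so the reads below do not measure the whole histone mRNA of the cells.

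The stem-loop is shown here because it marks the end of the usual transcript, which poly(A) selection is meant to leave out. It was searched for in the GENCODE M21 transcripts of GRCm38, which is not the build of the counts, and was found in an annotated transcript of 32 of the 43 members. The forms of 6 members follow as DNA, with both arms of the stem in capitals and the loop in lower case.
H1f2: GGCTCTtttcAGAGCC
H2bc12: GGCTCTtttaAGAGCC
H3c8: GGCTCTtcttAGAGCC
H4c8: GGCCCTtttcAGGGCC
H4c9: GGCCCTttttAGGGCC
H4c2: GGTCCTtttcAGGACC
The form of H1f2 was the most frequent and stood in 15 members. That of H2bc12 stood in 5, that of H4c8 in 6, that of H4c9 in 2 and that of H4c2 in 2. The arm GGCTCT was found in all 22 stem-loops of classes H1, H2A, H2B and H3 and in none of the 10 of class H4. In the other 11 members, among them H2bc21, H2bc4, H1f1 and H1f5, no annotated transcript held the searched form, and no stem-loop is shown for them. For some of these the only annotated transcript ends with the coding sequence, so no stem-loop could be found. They are H2ac13, H2ac15 and H2ac22 (393 bases, 390 of them coding), H2bc13, H2bc15 and H2bc18 (381 and 378) and H4c12 (312 and 309).

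Annotated transcripts differed in how far they run on. Of the members with a stem-loop, 14 had a transcript that goes on for more than 300 bases beyond it, and these 14 held 62.2% of all member reads. Most of those reads were of H1f2, with 6979 reads, and H4c9, with 2798 reads. H1f2 ran on for 840 bases, H4c9 for 330, H2ac6 for 2010 and H2bc6 for 1861. A poly(A) signal, here AATAAA or its common variant ATTAAA, stood in the last 50 bases of an annotated transcript of 9 members, namely H1f2, H2ac8, H2bc6, H2bc21, H2bc22, H4c8, H4c9, H4c11 and H4c14. These 9 held 61.2% of the 20251 member reads, most of them from H1f2, H4c9 and H2bc21, the last with 1483 reads. The median level of the 9 was 3.58 CPM (reads of a gene in 1e+06 reads of the scaled library) per kb of coding length, against 2.22 CPM per kb in the other 34. That split rests on annotated ends, not on reads of these libraries, and is given as a description with no test. The members named above whose transcript ends with the coding sequence could not show a signal beyond it. All but 3 members had a single exon, and the exceptions were H2bc4, H2bc6 and H2bc22.

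In RefSeq on GRCm38.p6, 39 members lay on chromosome 13 and 4 lay on chromosome 3 (H2ac20, H2bc18, H2bc21 and H4c14). Upstream sequence was at hand for 40 promoters of 39 members. It was missing for H2bc21, H2bc4, H3c7 and H4c14, while H2bc6 was entered more than once, with and without the octamer described below. The 250 bases before the start of 4 members are given 5′ to 3′ on the gene's strand. They are H1f2 and H4c9, which had the most reads, H2ac6, which had the largest fitted increase, and H4c8, which had the smallest p. Capitals mark exact letter strings on either strand, anywhere in the 250 bases. The strings are TATAAA for the TATA box, CCAAT for the CCAAT box, ATTTGCAT for the octamer and AAACACA for the H1 box. Their distance from the start was not checked, so a marked TATAAA need not be a TATA box in use. Other spellings of these elements were not searched, so an unmarked promoter may still hold one. H1f2 is at chr13:23738557-23738806, plus strand. H4c9 is at chr13:22041363-22041612, minus strand. H2ac6 is at chr13:23683960-23684209, minus strand. H4c8 is at chr13:23530794-23531043, plus strand.
H1f2: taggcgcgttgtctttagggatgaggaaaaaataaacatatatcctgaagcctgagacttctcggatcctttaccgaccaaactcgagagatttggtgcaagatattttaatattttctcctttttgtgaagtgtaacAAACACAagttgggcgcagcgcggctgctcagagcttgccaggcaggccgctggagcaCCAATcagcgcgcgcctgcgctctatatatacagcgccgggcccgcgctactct
H4c9: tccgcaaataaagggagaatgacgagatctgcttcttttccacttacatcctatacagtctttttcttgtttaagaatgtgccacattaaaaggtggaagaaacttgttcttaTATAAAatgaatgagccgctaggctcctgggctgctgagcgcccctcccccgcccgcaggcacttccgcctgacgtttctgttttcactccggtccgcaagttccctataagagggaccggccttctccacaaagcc
H2ac6: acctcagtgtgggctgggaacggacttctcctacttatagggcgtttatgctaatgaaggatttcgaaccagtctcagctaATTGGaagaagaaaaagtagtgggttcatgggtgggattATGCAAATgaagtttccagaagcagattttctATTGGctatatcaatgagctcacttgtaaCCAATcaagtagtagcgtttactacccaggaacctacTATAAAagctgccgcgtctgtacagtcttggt
H4c8: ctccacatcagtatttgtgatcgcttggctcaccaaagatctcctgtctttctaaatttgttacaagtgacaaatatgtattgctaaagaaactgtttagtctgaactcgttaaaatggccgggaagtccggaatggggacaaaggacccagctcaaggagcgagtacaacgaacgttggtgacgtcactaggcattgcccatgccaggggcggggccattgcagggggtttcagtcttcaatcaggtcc
The CCAAT box stood in 80.0% of the members' promoters, against 33.8% of all 32851 promoters of the same length. Every H1, H2A, H2B and H3 promoter held it, against 2 of 10 H4 promoters. The octamer, the site of OCT1, stood in 4 of 9 H2A and 6 of 12 H2B promoters and in none of the other classes, against 1.6% of all promoters. The H1 box, an element of linker histone promoters, stood in 4 of 5 H1 promoters and in 6.25% of all promoters. TATAAA stood in 52.5% of the members' promoters and in 12.4% of all. The promoter of H4c8 held none of these letter strings. The promoter of H2ac6 reaches its neighbour H2bc4, 239 bases away.

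Total counts lay between 28971253 and 30702452 in the sleep fragmentation libraries and between 30297437 and 31665923 in the control libraries. Of 12097 genes tested, edgeR's quasi-likelihood test called none at an adjusted p under 0.05, while 341 (2.82%) had an unadjusted p under 0.05, of which 261 had the higher level after sleep fragmentation. Summed markers of granulocyte-monocyte progenitors, such as Mpo and Elane, lay between 14407 and 20604 CPM in sleep fragmentation libraries and between 19155 and 21299 CPM in control libraries. Late granule genes, which maturing neutrophils switch on, stood at 154150, 63874 and 138480 CPM in sleep fragmentation replicates 1 to 3 and at 75529, 100460 and 57145 CPM in control replicates 1 to 3, so replicates of one group differed by more than 1.5-fold.

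The members took few reads. Their share of a library was lowest in control replicate 1, at 0.00878% (95% Wilson interval 0.00846 to 0.00912%), and highest in control replicate 3, at 0.0139% (0.0134 to 0.0143%). These intervals cover counting error only. The 12 genes listed as replication-independent histones, most of which are known for polyadenylated transcripts, took between 0.295% and 0.349% of the reads. Per kb of coding length, H3f3a and H3f3b, which encode the variant H3.3, averaged 2106 and 1794 CPM per kb over the 6 libraries, and H2az1, which encodes H2A.Z, averaged 1352 CPM per kb. The sum over all 5 class H3 members was 8.63 CPM per kb.

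Read levels within the members were uneven. H1f2 averaged 60.8 CPM per kb of coding length, H4c9 49.8, H2bc21 21.6 and H2bc4 19.5 CPM per kb. No other member exceeded the 9.05 CPM per kb of H2bc8, and H2bc22 was lowest at 0.797 CPM per kb. The class sums were 74.5 CPM per kb for H1, 15.8 for H2A, 79.5 for H2B, 8.63 for H3 and 77.9 for H4. H3 and H2A, which pair with H4 and H2B in equal numbers in the nucleosome, thus had lower sums than their partners in these libraries. These sums rest on few genes and on unlike numbers of members. H4c9 made up 49.8 of the 77.9 for H4, and H2bc21 and H2bc4 made up 21.6 and 19.5 of the 79.5 for H2B. The sums cover 9 H2A, 13 H2B, 5 H3 and 11 H4 members and leave out copies below the read threshold. The order depends on the length used: per kb of the longest annotated transcript, H2bc21 averaged 3.12 and H2bc8 5.53 CPM per kb.

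**Figure D1:**
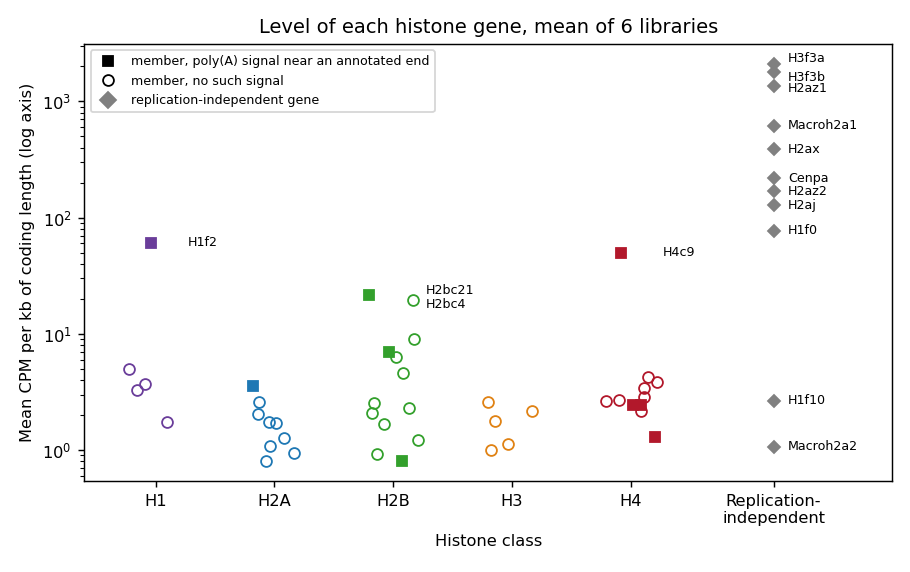
Mean level over the 6 libraries of each member by class, and of the replication-independent histone genes, in CPM per kb of coding length on a log axis; filled squares are members with a poly(A) signal near an annotated end, open circles are members without one. H1f2 at 60.8, H4c9 at 49.8, H2bc21 at 21.6 and H2bc4 at 19.5 CPM per kb stand above the other members, and H1f6, which had 1 read in all, is not drawn.

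H1f2, H4c9, H2bc21 and H2bc4 together held 73.8%, 57.9% and 57.0% of the member reads in sleep fragmentation replicates 1 to 3, and 60.1%, 71.3% and 56.7% in control replicates 1 to 3. H1f2 alone held between 26.0% and 45.4%. Their summed level was 78.3, 63.2 and 76.3 CPM in the sleep fragmentation libraries and 51.0, 76.5 and 72.4 CPM in the control libraries. The groups overlapped, and control replicate 1 was lowest. The other 39 members together stood at 27.7, 46.0 and 57.6 CPM in sleep fragmentation replicates 1 to 3, and at 33.8, 30.8 and 55.3 CPM in control replicates 1 to 3. Replicate 3 was highest in both groups and the lowest library of all was sleep fragmentation replicate 1, so the spread within each group was larger than the difference between the groups. All 43 members summed to 116.4 ± 15.3 CPM after sleep fragmentation and 106.6 ± 21.4 CPM in control (SD, n = 3 each), a log2 ratio of 0.13 with overlapping groups. Leaving out control replicate 1 gave a ratio of -0.01, leaving out sleep fragmentation replicate 3 gave 0.01, and leaving out control replicate 3 gave 0.28.

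**Figure D2:**
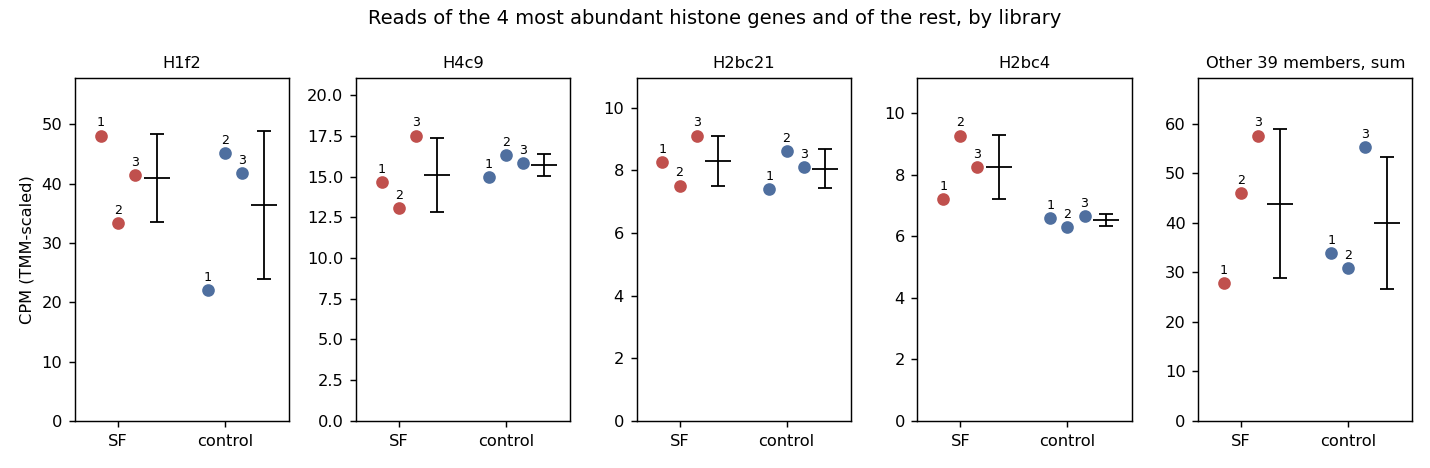
CPM of the 4 members with the most reads and summed CPM of the other 39, one point for each library with its replicate number, sleep fragmentation (SF) left of control; the bar beside each group is its mean ± SD (n = 3). Control replicate 1 is low for H1f2, at 22.1 CPM, and the other 39 members run from 27.7 to 57.6 CPM over the libraries of the sleep fragmentation group.

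Of the 43 members, 42 passed the filter on low counts, which uses counts of all libraries, and H2ac13 did not. None of the 42 was called at an adjusted p under 0.05, against 0% of all genes tested. By unadjusted p, 1 member was under 0.05 in edgeR's test, against 2.82% of all genes. It was likewise 1 member by DESeq2, against 3.66% of all genes, and 1 by limma-voom, against 2.79%. The fitted level was higher after sleep fragmentation for 26 members and lower for 16, against 49% of all genes higher, and the median log2 fold change was 0.06, against -0.00 for all genes. Scaled by library size alone, 20 were higher and 22 lower with a median of -0.04, while the median of all genes moved to -0.11. CPM did not overlap between the groups for 3 members, against 6.75% of all genes: H2bc4 was higher after sleep fragmentation, and H3c3 and H4c8 were lower. The 95% interval of the log2 fold change spanned 0 for 41 members and excluded a 2-fold change for 7.

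**Figure D3:**
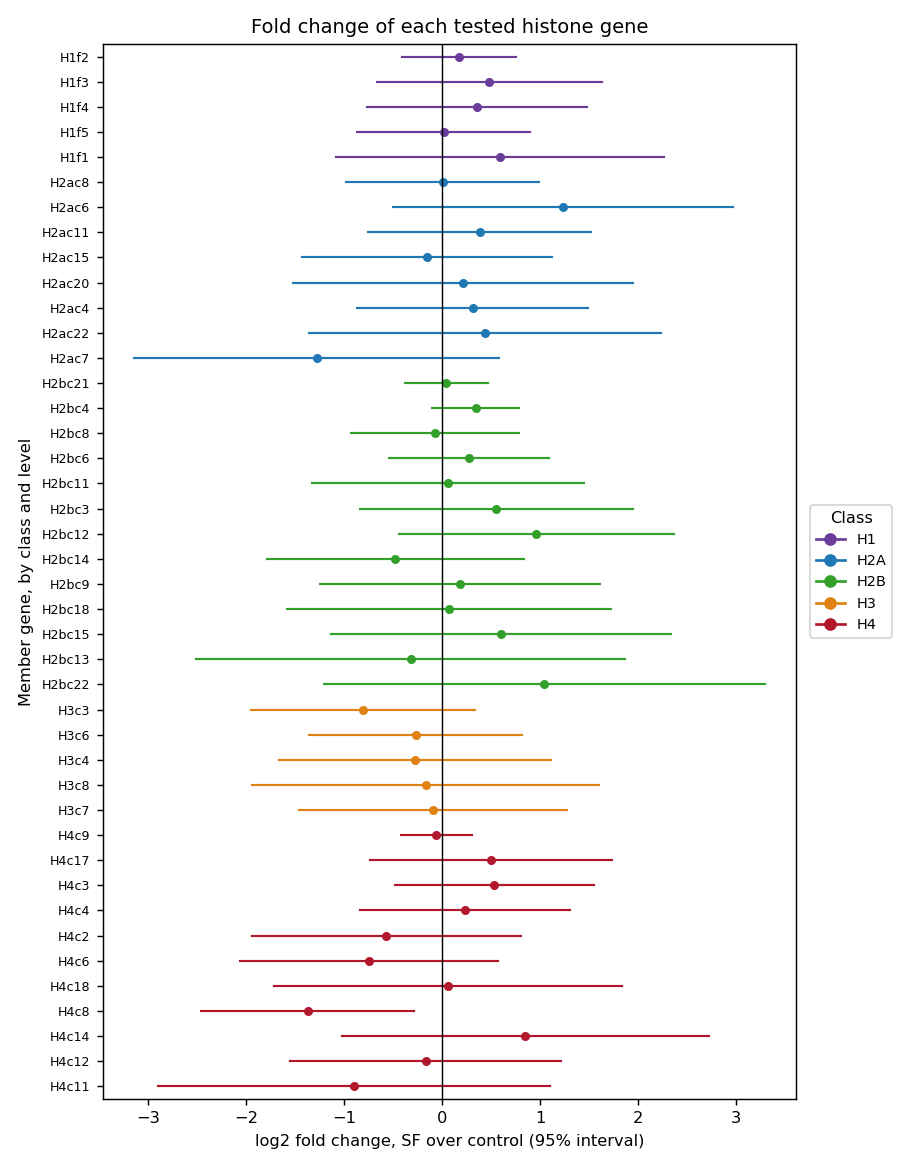
Log2 fold change, sleep fragmentation (SF) over control, of each of the 42 tested members with its 95% interval, ordered by class and then by level and coloured by class. Intervals of 41 members cross 0, and that of H4c8 runs from -2.46 to -0.28.

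The members had low counts and a wide spread between replicates. The median value of a tested member was 29 reads in a library, and 24 of the 43 members had 10 or more reads in all 6. The median biological coefficient of variation, the spread between replicates beyond counting error relative to the level, was 0.440 for the members and 0.169 for all genes. It lay above the trend for genes of the same level in 61.9% of the members, against 33.4% of all genes.

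Linker histones of class H1 bind the DNA where it enters and leaves the nucleosome. All 5 members of class H1 were fitted higher after sleep fragmentation, the median of their log2 fold changes being 0.35, with none under an unadjusted p of 0.05. Scaled by library size alone, 4 of the 5 were higher. Without sleep fragmentation replicate 3, 1 of the 5 was higher with a median of -0.07, and without control replicate 1, 3 of the 5 were. H1f2, which encodes H1.2, had 1286, 1079 and 1123 reads after sleep fragmentation and 699, 1419 and 1373 reads in control. The groups overlapped, with control replicate 1 lowest. Its log2 fold change was 0.17 (SE 0.26, 95% interval -0.41 to 0.76), and it was -0.09 without control replicate 1. H1f3, which encodes H1.3, had 37, 124 and 172 reads after sleep fragmentation and 74, 68 and 124 reads in control. Here sleep fragmentation replicate 1 was lowest and replicate 3 highest, and the log2 fold change of 0.48 (SE 0.51) became 0.88 without the first of these and -0.07 without the last. H1f4, for H1.4, showed the same order of libraries within the sleep fragmentation group, with 33, 84 and 117 reads, against 57, 47 and 101 reads in control. H1f1, for H1.1, had 7, 45 and 63 reads after sleep fragmentation and 19, 18 and 48 reads in control. H1f5, for H1.5, had 42, 65 and 83 reads after sleep fragmentation and 58, 58 and 95 reads in control, and its log2 fold change was 0.02 (SE 0.39). H1f3, H1f4, H1f5 and H1f1 together stood at 4.45, 9.83 and 16.05 CPM after sleep fragmentation and at 6.57, 6.08 and 11.2 CPM in control, which is 3.61-fold from the lowest library to the highest.

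H2A and H2B form the dimers that flank the H3 and H4 core of the nucleosome. Of 8 tested H2A members, 6 were fitted higher and 2 lower after sleep fragmentation, with none under an unadjusted p of 0.05. H2ac6, which in human is known to yield a polyadenylated transcript in differentiating cells, had 13, 68 and 44 reads after sleep fragmentation and 9, 8 and 41 reads in control. Control replicates 1 and 2 were low and control replicate 3 lay among the sleep fragmentation libraries, so the groups overlapped. Its log2 fold change of 1.23 (SE 0.76, unadjusted p = 0.141 in edgeR's test) was the largest increase of any member, and leaving out one library at a time gave values between 0.82 and 2.37. H2ac7 went the other way, with 2, 12 and 5 reads after sleep fragmentation and 6, 12 and 33 reads in control, a log2 fold change of -1.28 (SE 0.82), or -0.41 without control replicate 3. H2ac8, the H2A member with the most reads, had 44, 29 and 45 reads after sleep fragmentation and 34, 43 and 57 reads in control, and its log2 fold change was 0.00 (SE 0.43). H2ac11 had 28, 22 and 27 reads after sleep fragmentation and 19, 15 and 33 reads in control. H2ac15 had 22, 23 and 11 reads after sleep fragmentation and 35, 13 and 21 reads in control, and both pairs of groups overlapped. H2ac13, which was not tested, had 4, 14 and 9 reads after sleep fragmentation and 10, 3 and 18 reads in control. The remaining H2ac4, H2ac20 and H2ac22 had between 2 and 45 reads in a library, with fitted log2 fold changes of 0.31, 0.21 and 0.43.

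Of 13 H2B members, 10 were fitted higher and 3 lower, or 7 and 6 when scaled by library size alone. H2bc21 had 221, 243 and 247 reads after sleep fragmentation and 234, 271 and 267 reads in control. Its libraries were the most alike of any member, 1.23-fold from lowest to highest in CPM, and its log2 fold change was 0.04 (SE 0.19, 95% interval -0.38 to 0.47). H2bc4 had 193, 300 and 224 reads after sleep fragmentation and 209, 198 and 219 reads in control. The raw reads overlapped, while the scaled levels of 7.22, 9.28 and 8.26 CPM after sleep fragmentation lay above the 6.60, 6.30 and 6.66 CPM of control. Its log2 fold change was 0.34 (SE 0.20, unadjusted p = 0.117 in edgeR's test) and lay between 0.25 and 0.43 when one library was left out. H2bc12 had 18, 33 and 58 reads after sleep fragmentation and 25, 9 and 29 reads in control, with a log2 fold change of 0.96 (SE 0.62). H2bc8 had 82, 104 and 101 reads after sleep fragmentation and 58, 116 and 164 reads in control, where the control libraries spanned those of the other group. H2bc6 had 77, 113 and 60 reads after sleep fragmentation and 61, 59 and 109 reads in control. H2bc22, at the read threshold, had 2, 24 and 14 reads after sleep fragmentation and 1, 4 and 16 reads in control. Its log2 fold change of 1.04 (SE 0.99) moved to 2.44 without control replicate 3. The other 7 H2B members had log2 fold changes between -0.48 (H2bc14) and 0.60 (H2bc15), and H2bc13 had 0 reads in sleep fragmentation replicate 1.

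H3 carries many of the tail modifications by which chromatin states are read. All 5 H3 members were fitted lower after sleep fragmentation under each of the 3 scalings of library size, with none under an unadjusted p of 0.05 and a median log2 fold change of -0.27. With the replicate number in the model, or by limma-voom, 1 of the 5 was higher, and without sleep fragmentation replicate 1, 2 of the 5 were. H3c3 had 12, 33 and 22 reads after sleep fragmentation and 34, 33 and 62 reads in control. In CPM the groups did not overlap, at 0.449, 1.02 and 0.812 after sleep fragmentation and 1.07, 1.05 and 1.89 in control, but sleep fragmentation replicate 2 and the first 2 control libraries differed by little. Its log2 fold change was -0.81 (SE 0.50, unadjusted p = 0.144 in edgeR's test), or -0.48 without control replicate 3. H3c6 had 14, 25 and 30 reads after sleep fragmentation and 30, 25 and 38 reads in control. H3c4 had 9, 34 and 15 reads after sleep fragmentation and 12, 31 and 33 reads in control. H3c8 had 7, 13 and 17 reads after sleep fragmentation and 15, 28 and 3 reads in control, where control replicates 2 and 3 held the highest and the lowest level of all 6 libraries. H3c7 had 11, 18 and 6 reads after sleep fragmentation and 11, 10 and 20 reads in control. The summed H3 members stood at 3.035 ± 0.944 CPM after sleep fragmentation and 4.003 ± 0.763 CPM in control (SD, n = 3 each), and the groups overlapped.

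H4 pairs with H3 at the centre of the nucleosome, and its gene copies encode the same protein at 309 bases of coding length. Of 11 H4 members, 5 were fitted higher and 6 lower after sleep fragmentation, with a median log2 fold change of -0.06. Without sleep fragmentation replicate 3, 1 of the 11 was higher and the median was -0.27. H4c8 had 12, 12 and 12 reads after sleep fragmentation and 43, 25 and 37 reads in control. Every sleep fragmentation library was below every control library, at 0.421 ± 0.043 CPM after sleep fragmentation against 1.09 ± 0.28 CPM in control (SD, n = 3 each). The exact 95% Poisson interval of 12 reads is 6.201 to 20.96 reads, and that of the lowest control library, with 25 reads, is 16.2 to 36.9 reads. The log2 fold change was -1.37 (SE 0.48, 95% interval -2.46 to -0.28). The unadjusted p of edgeR's test was 0.0192 and the adjusted p over 12097 genes was 0.9999, so H4c8 was not called. Leaving out one library kept the log2 fold change between -1.55 and -1.19, with an unadjusted p between 0.0237 and 0.0803, the last without control replicate 1. Of its 75-base windows in GENCODE M21, 42.4% also occur in another gene, so the assignment of its reads is uncertain.

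**Figure D4:**
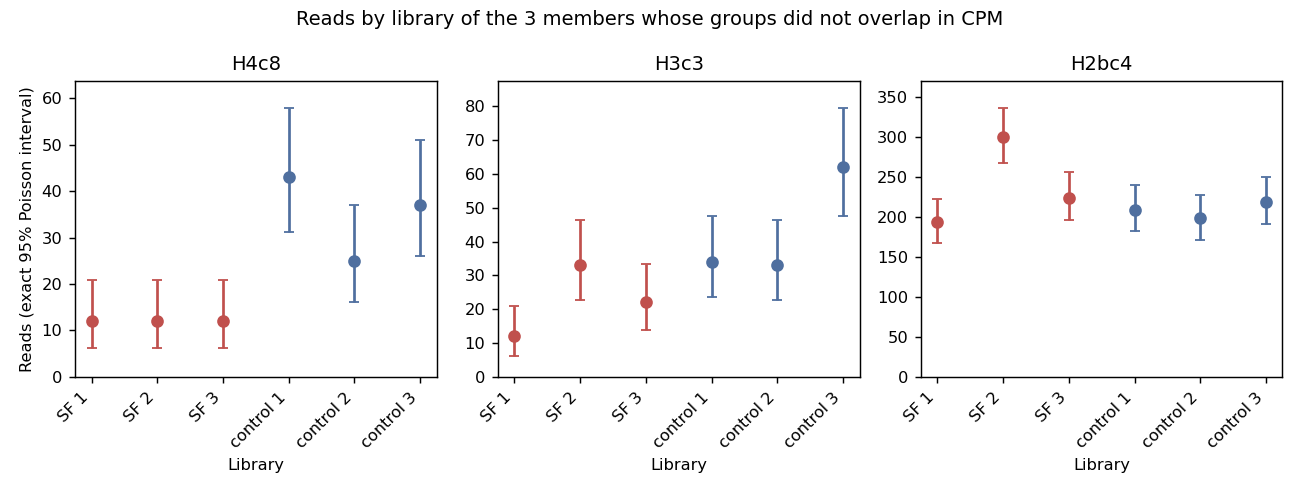
Reads in each library of H4c8, H3c3 and H2bc4, the 3 members whose groups did not overlap in CPM, sleep fragmentation (SF) libraries left of control libraries; bars are exact 95% Poisson intervals of the reads and cover counting error only. H4c8 has 12 reads in each sleep fragmentation library and 25 to 43 reads in control libraries, while the raw reads of H3c3 and H2bc4 touch or overlap between groups.

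H4c9, the H4 member with the most reads, had 393, 422 and 475 reads after sleep fragmentation and 474, 513 and 521 reads in control. In CPM the groups overlapped, and the log2 fold change was -0.06 (SE 0.16, 95% interval -0.42 to 0.31), the narrowest interval among the members. H4c6 had 10, 13 and 30 reads after sleep fragmentation and 32, 23 and 46 reads in control, with a log2 fold change of -0.74 (SE 0.58). H4c11 had 4, 1 and 18 reads after sleep fragmentation and 14, 12 and 24 reads in control, with a log2 fold change of -0.90 (SE 0.88). For both, sleep fragmentation replicate 3 was the high library of its group, and without it the values moved to -1.42 and -2.52. H4c3 had 30, 38 and 51 reads after sleep fragmentation and 39, 29 and 24 reads in control, with a log2 fold change of 0.53 (SE 0.45). H4c17 had 24, 36 and 71 reads after sleep fragmentation and 38, 20 and 47 reads in control, with a log2 fold change of 0.50 (SE 0.55). H4c4 had 20, 33 and 45 reads after sleep fragmentation and 25, 34 and 34 reads in control, and its groups overlapped as those of H4c3 and H4c17 did. The remaining H4c2, H4c12, H4c14 and H4c18 had between 6 and 56 reads in a library and log2 fold changes between -0.57 (H4c2) and 0.85 (H4c14).

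Of the 39 members outside the top 4, sleep fragmentation replicate 1 was the lowest library for 15, or 38.5%, against 28.5% of all genes tested. Control replicate 2 was the lowest for 10, or 25.6%, against 12.1% of all genes. Sleep fragmentation replicate 3 was the highest library for 14, or 35.9%, against 13.7% of all genes. Control replicate 3 was the highest for 15, or 38.5%, against 16.4%. The number of members with 10 or more reads was 30, 42 and 40 in sleep fragmentation replicates 1 to 3 and 35, 36 and 41 in control replicates 1 to 3. Within each group, the late granule genes given above were highest in the library where the other 39 members were lowest, which was replicate 1 after sleep fragmentation and replicate 2 in control. Across the groups this order did not hold, since sleep fragmentation replicate 3 had the next highest late granule level, at 138480 CPM, and the highest level of the other 39, at 57.6 CPM. The part of maturing cells in the members' levels was not tested. In bulk samples a lower share of cells in DNA replication and less histone RNA in each cell cannot be told apart.

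**Figure D5:**
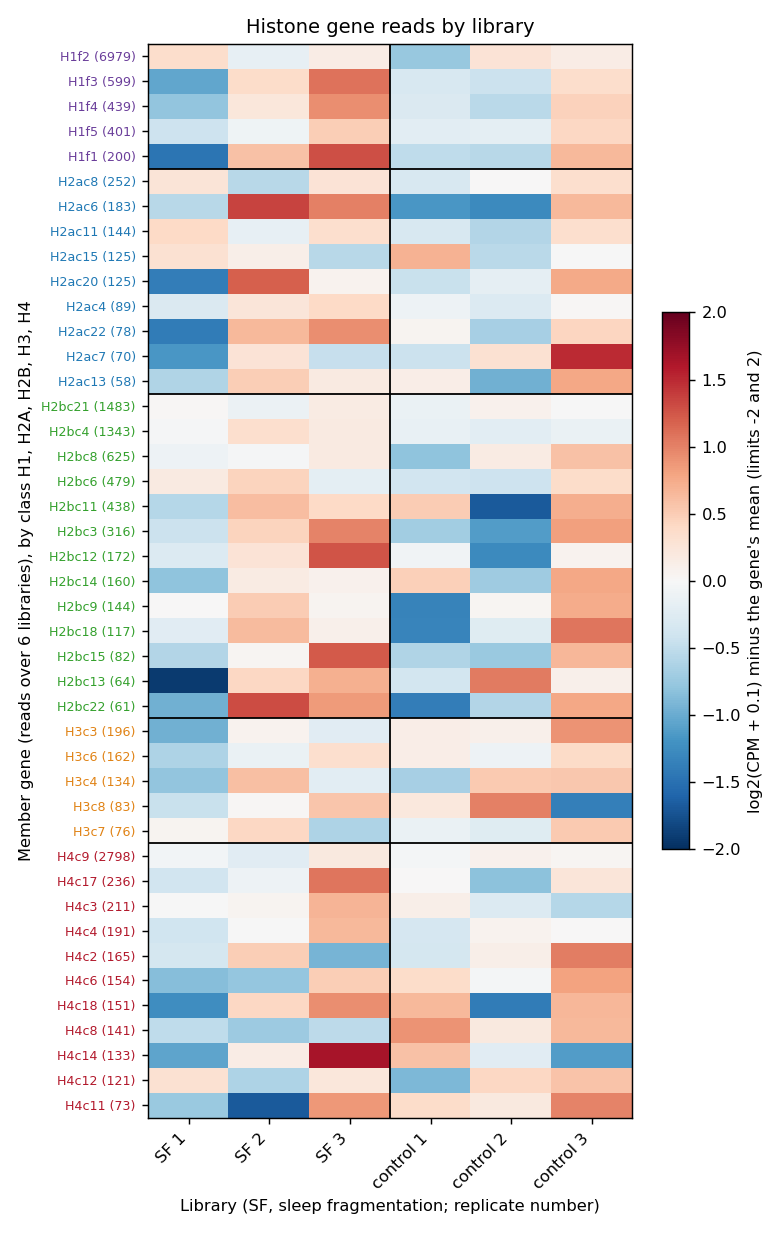
Log2(CPM + 0.1) minus the gene's own mean over the 6 libraries for each of the 43 members, in rows by class and level with the reads over all libraries in brackets; columns are sleep fragmentation (SF) libraries left of control libraries. SF replicate 1 is the lowest library for 15 of the 39 members outside the top 4, and control replicate 3 is the highest for 15.

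Neighbouring H2A and H2B genes formed 7 pairs among the members, 163 to 248 bases apart in RefSeq on GRCm38.p6. The pairs were found by distance alone, and the strands of the 2 genes were not compared. H2ac6 and H2bc4 are such a pair, with log2 fold changes of 1.23 and 0.34. The pair H2ac8 and H2bc8 had 0.00 and -0.07, the pair H2ac11 and H2bc11 had 0.38 and 0.06, and the pair H2ac15 and H2bc15 had -0.15 and 0.60. In H2ac22 and H2bc22 the values were 0.43 and 1.04, and in H2ac20 and H2bc21 they were 0.21 and 0.04. In the pair of H2ac13 and H2bc13, the first was not tested and the second had -0.32. Each of these fold changes lay within 2 SE of 0. The 4 members on chromosome 3 summed to 10.6 ± 1.6 CPM after sleep fragmentation and 9.82 ± 0.89 CPM in control, and the 39 on chromosome 13 to 105.8 ± 13.7 and 96.8 ± 20.5 CPM (SD, n = 3 each).

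Many members are near copies of each other. Of the 43, 15 shared more than 50% of their 75-base windows with another gene, the median share was 36.2%, and only H1f1, H1f5, H2bc21 and H4c14 shared none. How reads that match several genes were counted is not given in the sources used here, so single values of the copies are uncertain. H2bc18 shared all of its windows and H4c17 shared 89.0%, while H1f2 shared 6.66% and H2bc4 27.1%.

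Genes that act with histones varied less between replicates than the members, but most also had higher levels. Their median biological coefficient of variation was 0.13 for histone mRNA processing genes and 0.13 for histone chaperones. For H1f2, H4c9, H2bc21 and H2bc4, the members with the most reads, it was 0.230, 0.155, 0.173 and 0.179. It lay above the trend for genes of the same level in 16.7% of the processing genes and 21.6% of the chaperones, against 61.9% of the members. Slbp, which encodes the protein that binds the stem-loop and guides processing and translation of these mRNAs, stood at 195.8 ± 13.6 CPM after sleep fragmentation and 196.1 ± 15.9 CPM in control (SD, n = 3 each). Its log2 fold change was -0.00 (SE 0.12). Of 54 tested genes for processing, decay and transcription of histone mRNA, 20 were fitted higher and 34 lower, none was called and 1 had an unadjusted p under 0.05. That gene was Pou2af1, a coactivator of octamer-binding factors, known from B cells, at 1.80 ± 0.46 CPM after sleep fragmentation and 0.675 ± 0.190 CPM in control, with a log2 fold change of 1.40 (SE 0.45). Beside it, the 8 listed B cell markers summed to between 13.2 and 19.9 CPM after sleep fragmentation and between 12.9 and 21.4 CPM in control, and the B cell part in Pou2af1 was not tested. Of 37 histone chaperone genes, 7 were fitted higher and 30 lower, with none under an unadjusted p of 0.05. Chaf1a, a subunit of the assembly factor that places new H3 and H4 on replicated DNA, stood at 118.3 ± 7.6 CPM after sleep fragmentation and 132.7 ± 3.5 CPM in control, with a log2 fold change of -0.17 (SE 0.11). Scaled by library size alone, 9 of the 54 and 3 of the 37 were higher.

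Of 58 genes for DNA replication and S phase, 4 were fitted higher and 54 lower after sleep fragmentation, with a median log2 fold change of -0.12, against -0.00 for all genes. None was called, and 2 had an unadjusted p under 0.05. Cdt1, which loads the replicative helicase, stood at 77.4, 80.0 and 72.6 CPM after sleep fragmentation and at 99.6, 90.0 and 97.9 CPM in control, without overlap, and its log2 fold change was -0.32 (SE 0.10). Pole, the catalytic subunit of leading strand polymerase, had a log2 fold change of -0.28 (SE 0.12), and Pcna, the sliding clamp, one of -0.03 (SE 0.13). The 58 genes summed to 7157, 7894 and 7912 CPM after sleep fragmentation and to 8826, 8072 and 7974 CPM in control, with no overlap. Scaled by library size alone, they stood at 6511, 8314 and 7403 CPM after sleep fragmentation and at 9132, 8006 and 8654 CPM in control, and overlapped, with 2 genes fitted higher and 56 lower. The summed CPM of the histone members overlapped between the groups in every class. Of 30 genes of G2 and mitosis, 8 were fitted higher and 22 lower with a median of -0.04, and Mki67, a marker of cycling cells, stood at 1448 ± 154 CPM after sleep fragmentation and 1551 ± 123 CPM in control.

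Of 11 tested genes listed as replication-independent histones, 3 were fitted higher and 8 lower, with none under an unadjusted p of 0.05. Among them, the annotated transcript of H2ax held the searched stem-loop and went on for 822 bases beyond it. H3f3b had 709, 802 and 797 CPM after sleep fragmentation and 697, 707 and 680 CPM in control. All sleep fragmentation libraries were higher on the TMM scale, with a log2 fold change of 0.15 (SE 0.13). H3f3a had a log2 fold change of 0.18 (SE 0.14). H2az1 stood at 512.5 ± 54.3 CPM after sleep fragmentation and 525.8 ± 52.7 CPM in control, and H2ax, which marks DNA breaks when phosphorylated, at 163.9 ± 16.5 CPM after sleep fragmentation and 168.0 ± 19.7 CPM in control (SD, n = 3 each). Cenpa, the H3 variant of centromeres, had a log2 fold change of -0.14 (SE 0.13). The 12 listed genes summed to 3243, 3310 and 3247 CPM after sleep fragmentation and to 3134, 3210 and 3164 CPM in control, without overlap. Scaled by library size alone, the sums were 2950, 3486 and 3038 CPM after sleep fragmentation and 3242, 3183.5 and 3434 CPM in control, and overlapped. These sums rest mostly on H3f3a, H3f3b, Macroh2a1 and H2az1.

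Markers of other cells that could be in the sorted material moved as follows. All 36 tested late granule genes were fitted higher after sleep fragmentation, 10 with an unadjusted p under 0.05 and none called. Their median fold change was 0.64 on the log2 scale. Of 14 erythroid genes 13 were higher, 3 with an unadjusted p under 0.05. The 15 listed summed to between 252.1 and 335.5 CPM after sleep fragmentation and between 192.7 and 289.5 CPM in control. Tfrc, which averaged 228.9 CPM over the 6 libraries, made up most of that sum, so the sum says little about the other erythroid genes. Erythroid precursors also replicate their DNA, and their part in the members' reads was not tested. Summed markers of megakaryocytes, B cells, T and NK cells, dendritic cells, monocytes, and eosinophils, basophils and mast cells overlapped between the groups, but single genes made up most of 3 of these sums. Nkg7, which cytotoxic cells express, averaged 236.6 CPM over the 6 libraries and made up nearly all of the T and NK cell sum. Of the 5 tested T and NK cell genes, 4 were fitted higher after sleep fragmentation with a median log2 fold change of 0.62. Cd3d, a subunit of the T cell receptor complex, stood at 2.66 ± 1.51 CPM after sleep fragmentation and 0.931 ± 0.270 CPM in control (SD, n = 3 each), with an unadjusted p of 0.0234 in edgeR's test. Cd3e, Cd3g and Cd8a, which also define T cells, had between 0 and 11 reads in a library. Itga2b, at 46.9 CPM, made up most of the megakaryocyte sum, and 4 of 6 tested genes of that list were fitted higher, among them Pf4 with a log2 fold change of 1.22 (SE 0.54). Cd79b, at 12.4 CPM, made up most of the B cell sum, and 4 of 6 were fitted higher. The part of these cells in the members' reads was not tested.

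Just inside the read threshold, with 10 or more reads in 3 libraries, were H2ac13 (58 reads over 6 libraries), H2bc22 (61), H2ac7 (70) and H2bc15 (82). Just outside, with 10 or more reads in 2 libraries, were H2ac21 (28 reads), H4c1 (44), H2bc7 (53), H3c11 (54) and H3c1 (70).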

How the data were processed

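The deposited table holds raw counts of reads per gene, which the authors made with fastp, HISAT2 and HTSeq on GRCm39, per the submitters' processing notes; versions, annotation release, strand setting and the handling of multi-mapping reads are not given in the sources used here. Libraries were made from polyadenylated RNA with the VAHTS Universal V6 kit, per the labels' protocols.

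Counts were analysed with edgeR 4.0.16 in R 4.3.3: filterByExpr (minimum count 10, minimum total 15) kept 12097 of 16539 genes, TMM factors lay between 0.910 and 1.09, and the robust quasi-likelihood F-test compared 3 sleep fragmentation with 3 control libraries, with Benjamini-Hochberg adjustment over all genes tested and a threshold of 0.05. CPM are counts per 1e+06 counts of the TMM-scaled library. SE is the log2 fold change divided by the root of F. Alternatives used DESeq2 1.42.0, limma 3.58.1 (voom), other scalings, filters, a replicate term and left-out libraries.

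The members and gene lists were chosen with earlier results of these data known, so no list was tested as a set. Members named were the 4 most abundant of each class, those without overlap, the 5 of smallest p in each direction, those listed as polyadenylated and those at the read threshold; members and genes named beside them were chosen after their values were seen. Levels per kb used GENCODE M21 coding lengths, as no protein table was at hand. Promoters came from RefSeq (GRCm38.p6). Small RNAs without a poly(A) tail were not analysed here. Figures were drawn with matplotlib 3.10.9.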

Additional observations from a re-analysis of the deposited data

How the results depend on the processing

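No member was called under any alternative. The count of members with an unadjusted p under 0.05 was 1 in the reported test, against 341 of 12097 genes. It was 0 with a minimum count of 50, where 11 members were tested without H4c8, against 292 of 10652 genes. It was 0 when replicate 1 of both groups was left out (chosen after seeing the data), against 232 of 12205 genes. With one library left out it was 0 to 3. The 3, without sleep fragmentation replicate 3, were H4c6, H4c8 and H4c11, against 197 of 12307 genes. The count was 0 without sleep fragmentation replicate 2, against 1330 of 12284 genes, and 0 without control replicate 1, against 155 of 12300 genes. The count of members fitted higher, 26 of 42, was 9 of 11 with a minimum count of 50, 20 by library size alone, and 15 to 30 with one library left out, lowest without sleep fragmentation replicate 3. The median log2 fold change, 0.06, lay between -0.12 and 0.36 with one library left out, and that of the summed reads, 0.13, between -0.01 and 0.28; the summed reads were not recomputed by DESeq2 or voom. Without the members listed as polyadenylated, the median was 0.06 and the summed ratio 0.05. Of 347 values of named members under alternatives, 337 moved by less than 1 SE and 10 by more, while 38 changed sign without being called. Same-numbered libraries deviated from their group means with correlations of -0.33, -0.57 and -0.04 over 12097 genes, and libraries of different number with -0.40 to 0.58. With 3 libraries in a group, these values cannot show whether the numbers pair the samples, and the labels do not say it. With the replicate block, 0 members were called and 1 had an unadjusted p under 0.05, against 169 of 12097 genes. With that block, 25 members were fitted higher and the median was 0.14. DESeq2 called 13 of all genes and no member. At this depth, with a median of 29 reads per library, the interval excluded a 2-fold change for 7 members only. Other causes of these moves were not tested.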

Other observations

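The 18 histone symbols below the read threshold held 7 to 70 reads each over the 6 libraries. H3c1 had 2, 1 and 16 reads after sleep fragmentation and 7, 8 and 36 reads in control, so replicate 3 was highest in both groups. H2ac21 had 1, 15 and 0 reads after sleep fragmentation and 0, 0 and 12 reads in control. H2bc7 had 1, 21 and 3 reads after sleep fragmentation and 18, 1 and 9 reads in control. The reads of H3c1, H2ac21 and H2bc7 lay mostly in 1 or 2 libraries. H2ac23 had 0, 0 and 1 reads after sleep fragmentation and 4, 6 and 6 reads in control, without overlap, and was not tested.

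H1f0, the linker histone known for its rise in cells that stop dividing, stood at 42.3, 48.4 and 42.3 CPM after sleep fragmentation and at 52.8, 30.9 and 51.2 CPM in control, and the groups overlapped. The 9 listed genes known to give polyadenylated histone transcripts, H1f0 among them, summed to 104.9 ± 2.5 CPM after sleep fragmentation and 97.6 ± 11.2 CPM in control (SD, n = 3 each), with overlapping groups.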
